A study of Rattus norvegicus with 10 samples.

Results

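Complement components and mannose-binding lectins were followed in rat liver after a burn through 6 genes: C4bpa, C9, C3, Mbl1, Mbl2 and Cfd. A probe set of the array was taken when the probe table gave it 1 of these symbols and no other. This gave 9 of the 7018 probe sets with a single symbol, for 6 of 4737 genes. All 9 were bright enough to be tested, among 5285 tested probe sets in all. C3, Mbl1 and Mbl2 had 2 probe sets each.

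Total RNA of rat liver was hybridised to 10 expression arrays in 5 groups of 2, namely sham rats, given as 0 h, and burned rats at 1, 4, 8 and 24 h. Each array gave 1 intensity per probe set, on a scale read as linear, and the deposited arrays had nearly the same trimmed mean. Strain, sex, age, the extent of the burn and what the sham procedure involved are not given in the labels. Nor do they state if each array had an animal of its own, so a p-value reflects array-to-array spread alone, and that spread may be technical.

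Complement is a cascade of plasma proteins, most of them made by hepatocytes, that marks microbes and damaged cells for removal. Pattern-recognising proteins such as the mannose-binding lectins start it, enzyme complexes called convertases then cleave C3, and the last components assemble into a pore. Soluble inhibitors hold the cascade in check. Several complement proteins belong to the acute phase response, in which the liver changes its output of plasma proteins after injury, under signals such as interleukin-6 that act through STAT3 and C/EBP factors.

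The promoters of 4 members are shown first, because C/EBP and STAT3 sites are a known route of acute phase control. RefSeq promoter sequences of the rat build GRCr8, 250 bases before to 50 bases after the annotated start, matched 5 of the 6 members by symbol, all but C9. That of C4bpa lies on the minus strand at chr13:44663422-44663721, and its start is 81 bases from the outermost annotated start. That of C3 lies on the minus strand at chr9:2201290-2201589. That of Mbl1 lies on the plus strand at chr16:17062982-17063281. That of Mbl2 lies on the plus strand at chr1:237430793-237431092, and its start is 1170 bases from the outermost annotated start. Capitals mark matches to TTNNGNAA, a short form of the C/EBP site, on either strand.
C4bpa: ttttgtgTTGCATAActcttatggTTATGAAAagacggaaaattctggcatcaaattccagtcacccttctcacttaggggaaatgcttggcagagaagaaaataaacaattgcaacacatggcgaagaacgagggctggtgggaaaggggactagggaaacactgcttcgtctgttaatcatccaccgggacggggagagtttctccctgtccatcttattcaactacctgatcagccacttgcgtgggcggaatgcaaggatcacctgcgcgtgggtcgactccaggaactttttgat
C3: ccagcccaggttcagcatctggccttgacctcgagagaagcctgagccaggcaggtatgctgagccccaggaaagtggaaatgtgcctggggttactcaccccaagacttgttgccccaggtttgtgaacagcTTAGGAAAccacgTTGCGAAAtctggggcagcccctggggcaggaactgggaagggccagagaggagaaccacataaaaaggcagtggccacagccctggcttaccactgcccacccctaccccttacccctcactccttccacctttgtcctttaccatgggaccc
Mbl1: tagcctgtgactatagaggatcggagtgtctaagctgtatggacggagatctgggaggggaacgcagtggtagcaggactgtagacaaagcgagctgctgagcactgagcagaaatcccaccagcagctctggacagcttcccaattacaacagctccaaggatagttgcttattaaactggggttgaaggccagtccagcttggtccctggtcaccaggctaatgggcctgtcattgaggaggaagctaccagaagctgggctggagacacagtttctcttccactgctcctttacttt
Mbl2: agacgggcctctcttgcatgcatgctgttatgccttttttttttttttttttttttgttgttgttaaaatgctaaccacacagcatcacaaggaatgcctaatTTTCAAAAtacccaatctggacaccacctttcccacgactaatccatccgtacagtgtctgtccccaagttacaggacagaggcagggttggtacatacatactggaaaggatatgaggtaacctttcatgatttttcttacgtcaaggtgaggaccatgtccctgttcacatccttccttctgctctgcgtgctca

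C4bpa held TTNNGNAA at positions -243 to -236 on the opposite strand and at -226 to -219, counted with the annotated start at 0. C3 held it at -117 to -110 and at -104 to -97, and the second match read as TTNNGNAA on both strands. Mbl2 held it at -147 to -140 on the opposite strand, while the windows of Mbl1 and Cfd held none. These letters occur in 41.3% of the 33469 rat promoters of the same length. TTCNNNGAA, the form searched as the STAT3 motif, occurred in none of the 5 windows, and in 8.9% of all promoters. CTGGGA, the core of the type II interleukin-6 response element, occurred once in C3, at -71 to -66, and once in Mbl1, at -200 to -195, and in 30.3% of all promoters. CTGGGA was searched on both strands and shared no base with a TTNNGNAA match. A match describes letters in the window and says nothing of binding.

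In the deposited values, C4bpa, C9, C3 and Mbl1 had their highest mean at 8 h on every one of their probe sets, Mbl2 at 1 h on both, and Cfd at 24 h. Mbl1 and Mbl2 had their lowest mean at 24 h on both probe sets, and C9 and Cfd had theirs at 4 h. Differences between the members' courses were not tested. The moderated F test of limma over the 4 burn times passed for 7 of the 9 probe sets, from 5 of the 6 members, at a Benjamini-Hochberg adjusted p under 0.05, beside 15.3% of all tested probe sets. The exceptions were both C3 probe sets, with adjusted p of 0.1 and 0.423.

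**Figure D1:**
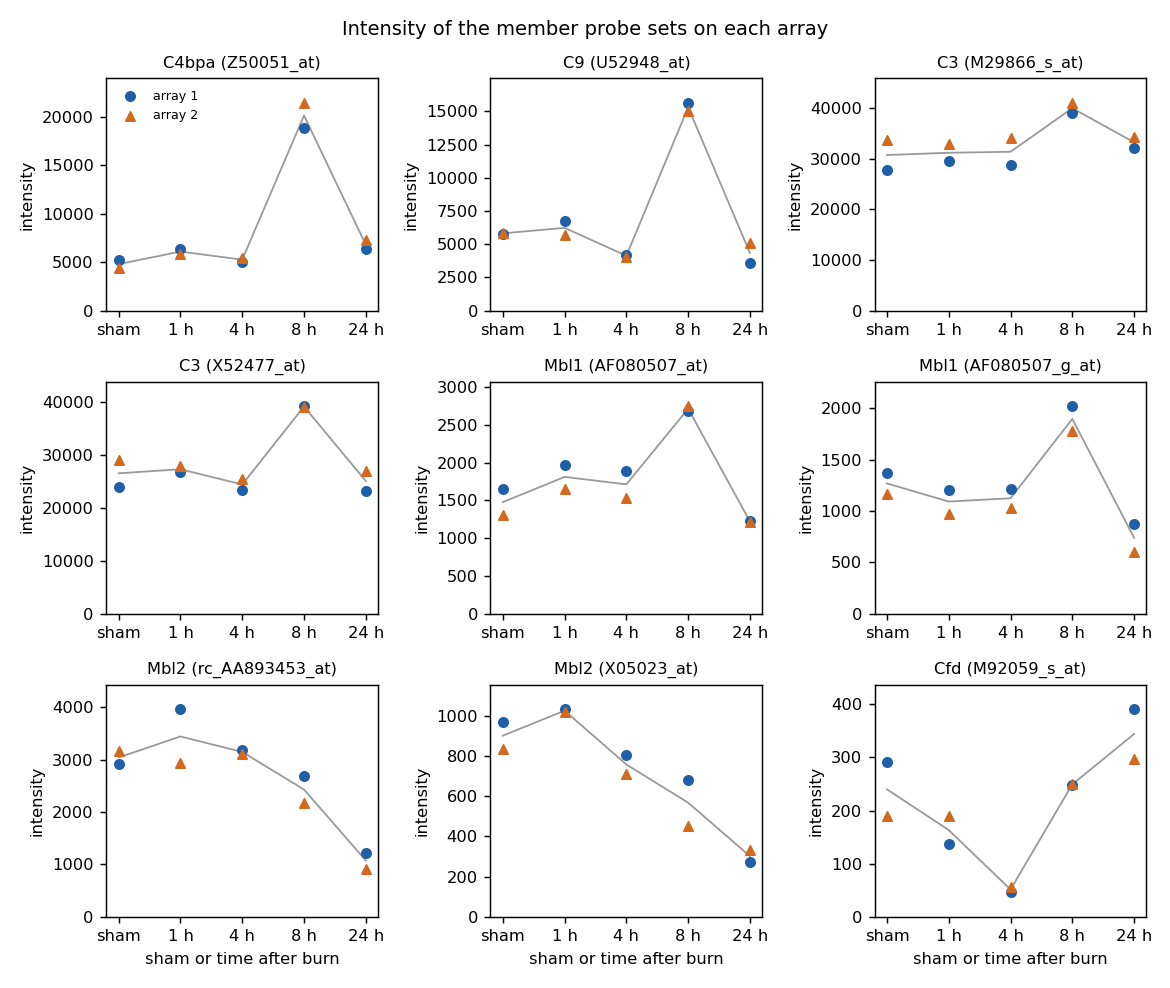
Intensity (linear, in the deposited units) of the 9 member probe sets for sham and the burn times 1, 4, 8 and 24 h. Circles and triangles are the 2 arrays of a group and the grey line joins the group means. C4bpa, C9, C3 and Mbl1 are highest at 8 h, the probe sets of Mbl1 and Mbl2 are lowest at 24 h, and C9 and Cfd are lowest at 4 h.

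C4bpa encodes the alpha chain of C4b-binding protein, a soluble inhibitor of the classical and lectin pathways. Its probe set Z50051_at read 5203.5 and 4382.7 in sham rats, 6367.5 and 5805.7 at 1 h, 5041.2 and 5463.8 at 4 h, 18853.6 and 21378.9 at 8 h, and 6314.8 and 7279.4 at 24 h. Both 8 h arrays stood far above the other 8, which lay between 4382.7 and 7279.4. The mean was 20116 ± 1786 at 8 h, against 4793 ± 580.4 in sham rats (SD, n = 2 each). Against sham, C4bpa rose 4.20-fold at 8 h, a log2 change of 2.07 with a 95% interval of 1.67 to 2.48 (limma, Benjamini-Hochberg adjusted p = 0.00367). Folds here are ratios of geometric means. In tissue arrays, more RNA per cell and more cells of a type cannot be told apart. The summed intensity of the hepatocyte markers was 558640 and 584206 on the 8 h arrays, against 405596 and 481430 on the sham arrays. By their brightest probe sets, 0 of the 6 tested hepatocyte genes were called at 8 h. Less bright probe sets of Apoa1 (limma, adjusted p = 0.0328) and Serpina1 (adjusted p = 0.017) passed. The part of hepatocytes in the result was not tested.

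The rise of C4bpa came between 4 and 8 h and was largely gone by 24 h. From the 4 h to the 8 h arrays it was 3.83-fold higher (adjusted p = 0.0012), and at 24 h it was 2.96-fold lower than at 8 h (adjusted p = 0.00242). Both calls held under all 18 alternative settings. At 24 h both arrays still lay above both sham arrays, with a log2 change of 0.51 and a 95% interval of 0.10 to 0.91, which did not pass after adjustment (adjusted p = 0.119). Of the alternatives, only a variance model with an intensity trend made this 24 h change pass (adjusted p = 0.0211). The call at 8 h was lost only when the 4 arrays of the groups compared were fitted by themselves (adjusted p = 0.145).

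C9 encodes the component that polymerises into the pore of the membrane attack complex. Its probe set U52948_at read 5754.8 and 5871.1 in sham rats, 6771.4 and 5685.9 at 1 h, 4181.2 and 4070.5 at 4 h, 15602.0 and 15002.6 at 8 h, and 3564.0 and 5105.5 at 24 h. The 8 h arrays stood far above all others, and both 4 h arrays and both 24 h arrays lay below both sham arrays. The mean was 15302 ± 424 at 8 h, against 5813 ± 82.2 in sham rats (SD, n = 2 each). C9 rose 2.63-fold at 8 h against sham, a log2 change of 1.40 with an interval of 0.92 to 1.88 (limma, adjusted p = 0.0202). Its log2 changes against sham were -0.49 at 4 h (adjusted p = 0.272) and -0.45 at 24 h (adjusted p = 0.228), neither past the threshold.

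Between successive times C9 was 3.71-fold higher at 8 h than at 4 h (adjusted p = 0.00248) and 3.59-fold lower at 24 h than at 8 h (adjusted p = 0.00242). The first of these calls held under all 18 alternatives, and the second was lost only with the compared groups fitted by themselves (adjusted p = 0.0539). The call at 8 h against sham depended on both arrays of each group. Leaving out either sham array or either 8 h array moved its adjusted p to between 0.0837 and 0.0962, and the compared groups fitted by themselves gave 0.145.

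C3 is the component on which all pathways converge. M29866_s_at, whose suffix marks probes that can match more than one transcript, read 27706.1 and 33686.9 in sham rats, 29496.8 and 32789.3 at 1 h, 28642.8 and 34030.0 at 4 h, 38967.7 and 40901.4 at 8 h, and 32092.6 and 34312.3 at 24 h. X52477_at read 24004.6 and 29137.3 in sham rats, 26771.1 and 27900.8 at 1 h, 23354.9 and 25553.9 at 4 h, 39231.6 and 39189.2 at 8 h, and 23265.5 and 26949.3 at 24 h. On both probe sets the 8 h arrays lay above the arrays of every other group, and those other groups overlapped with sham.

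The higher level of C3 at 8 h did not pass the test. X52477_at was 1.48-fold higher than in sham rats, a log2 change of 0.57 with an interval of 0.17 to 0.96 (limma, adjusted p = 0.128). M29866_s_at had a log2 change of 0.39 with an interval of -0.03 to 0.80 (adjusted p = 0.293). X52477_at missed the threshold narrowly for both steps around 8 h, with log2 changes of 0.68 from 4 to 8 h (adjusted p = 0.0529) and -0.65 from 8 to 24 h (adjusted p = 0.0505). At 8 h against sham X52477_at passed under 1 alternative, a variance model with an intensity trend (adjusted p = 0.0137). Over all alternatives its log2 change at 8 h ran from 0.33 to 0.71, and that of M29866_s_at from 0.13 to 0.53. With an array left out the lowest were 0.43 and 0.25, so other settings gave the smallest rises. At 4 h against sham M29866_s_at ran from -0.11 to 0.24, and its ranges at 4 and 8 h overlapped.

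Mbl1 and Mbl2 encode the A and C forms of mannose-binding lectin, which bind sugars on microbes and start the lectin pathway. Mbl1 probe set AF080507_at read 1649.5 and 1305.2 in sham rats, 1970.8 and 1653.3 at 1 h, 1890.1 and 1536.1 at 4 h, 2684.1 and 2745.9 at 8 h, and 1228.6 and 1214.8 at 24 h. AF080507_g_at read 1372.4 and 1166.4 in sham rats, 1210.0 and 975.9 at 1 h, 1219.3 and 1030.6 at 4 h, 2020.1 and 1776.4 at 8 h, and 874.4 and 605.2 at 24 h. On both probe sets the 8 h arrays were above and the 24 h arrays below those of every other group.

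Mbl1 was 2.22-fold lower at 24 h than at 8 h on AF080507_at (limma, adjusted p = 0.0114) and 2.60-fold lower on AF080507_g_at (adjusted p = 0.0123). Against sham neither end passed. At 8 h the log2 change was 0.89 (interval 0.43 to 1.34, adjusted p = 0.0573) and 0.58 (interval 0.03 to 1.14, adjusted p = 0.245), and at 24 h it was -0.26 (interval -0.72 to 0.19, adjusted p = 0.459) and -0.80 (interval -1.35 to -0.25, adjusted p = 0.0784), for AF080507_at and AF080507_g_at in that order. Leaving out any single 8 h or 24 h array ended the step call of AF080507_at, with adjusted p up to 0.0642, and leaving out the first 8 h or the second 24 h array ended that of AF080507_g_at, with adjusted p up to 0.0643. AF080507_at passed at 8 h against sham with a higher floor (adjusted p = 0.0249) or an intensity trend (adjusted p = 0.00718), and AF080507_g_at passed at 24 h under 3 alternatives.

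Mbl2 was lowest at 24 h on both of its probe sets. The probe set rc_AA893453_at read 2920.9 and 3164.1 in sham rats, 3957.5 and 2927.6 at 1 h, 3184.0 and 3109.7 at 4 h, 2694.4 and 2164.4 at 8 h, and 1226.6 and 921.1 at 24 h. X05023_at read 967.3 and 834.0 in sham rats, 1030.8 and 1019.1 at 1 h, 806.8 and 707.9 at 4 h, 681.3 and 453.5 at 8 h, and 272.3 and 330.1 at 24 h. On both probe sets every 24 h array lay under every array of the other 4 groups, and both 8 h arrays lay under both sham arrays.

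Mbl2 fell at 24 h on both probe sets. It was 2.86-fold lower than in sham rats on rc_AA893453_at, a log2 change of -1.52 with an interval of -2.05 to -0.98 (limma, adjusted p = 0.0085), and 3.0-fold lower on X05023_at, -1.58 with an interval of -2.13 to -1.04 (adjusted p = 0.00783). The levels at 8 h did not pass against sham, with log2 changes of -0.33 (adjusted p = 0.487) and -0.69 (adjusted p = 0.17). The step from 8 to 24 h passed on rc_AA893453_at, 2.27-fold lower at 24 h (adjusted p = 0.0178), and just missed on X05023_at, at a log2 change of -0.89 (adjusted p = 0.0508). The 24 h call was lost on rc_AA893453_at without the second sham array (0.0547) or the second 24 h array (adjusted p = 0.0531), and on X05023_at without the first 24 h array (adjusted p = 0.0503). With the compared groups fitted by themselves the 24 h adjusted p was 0.0735 and 0.0626, and without the first 8 h or the second 24 h array the step call of rc_AA893453_at was lost, with adjusted p up to 0.0993.

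Cfd encodes complement factor D, also called adipsin, the protease that cleaves factor B in the alternative pathway and is made mainly by fat cells. Its only probe set, M92059_s_at, has the suffix of C3 M29866_s_at, for probes that can match several transcripts. The probe set read 291.0 and 189.0 in sham rats, 136.3 and 190.1 at 1 h, 46.0 and 56.8 at 4 h, 247.8 and 250.9 at 8 h, and 390.3 and 298.0 at 24 h. Both 4 h arrays lay under all other arrays, both 24 h arrays lay above both sham arrays, and the 1 h and 8 h arrays overlapped with sham.

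Cfd fell at 4 h. Its mean was 51.4 ± 7.64 at 4 h, against 240.0 ± 72.1 in sham rats (SD, n = 2 each), which was 4.59-fold lower, a log2 change of -2.20 with an interval of -2.86 to -1.54 (limma, adjusted p = 0.00585). It was 3.15-fold lower at 4 h than at 1 h (adjusted p = 0.0195) and 4.88-fold higher at 8 h than at 4 h (adjusted p = 0.00416). At 24 h its log2 change against sham was 0.54 (adjusted p = 0.293). The 4 h readings stood above the floor of 36.4 but below the medians of their arrays, 118.9 and 121.9. With the floor raised to 121.3 the change at 4 h against sham was -0.95 and did not pass (adjusted p = 0.0668), that against 1 h was -0.41 (adjusted p = 0.429), and the rise from 4 to 8 h was 1.04 and passed. The step from 1 to 4 h was also lost without any single 1 h or 4 h array, with adjusted p up to 0.119, and both falls were lost with the compared groups fitted by themselves.

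Markers of other cell types were set beside Cfd. Of 8 adipocyte markers 6 were on the array, and their summed intensity was 5296 and 5715 in sham rats, 5561 and 5586 at 1 h, 5117 and 5083 at 4 h, 4401 and 4263 at 8 h, and 5156 and 5564 at 24 h. Most of this sum came from Lep D49653_s_at, with means of 2950 in sham rats and 2842 at 4 h, and from Car3. Car3 had means of 1740 in sham rats, 1238 at 4 h and 361 at 8 h. The other Lep probe sets had means of 103.2 and 95.8 in sham rats. None of the 4 tested adipocyte genes was called at any time, and the fat cell genes Fabp4 and Plin1 lay under the floor on 9 and 7 of the 10 arrays. The sum is therefore a weak measure of fat cells. Of 15 markers of the exocrine pancreas 13 were on the array, with a sum of 9850 and 10534 in sham rats, 47141 and 49510 at 1 h, 2373 and 2294 at 4 h, 14215 and 13855 at 8 h, and 2161 and 2617 at 24 h. Of these 13 genes, 8 were called lower at 4 h and 9 at 24 h, while 11 were called higher at 1 h and 4 at 8 h. The pancreatic sum was low at 4 h, where Cfd was lowest, and as low at 24 h, where Cfd was highest. The part of such cells in the level of Cfd was not tested.

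**Figure D2:**
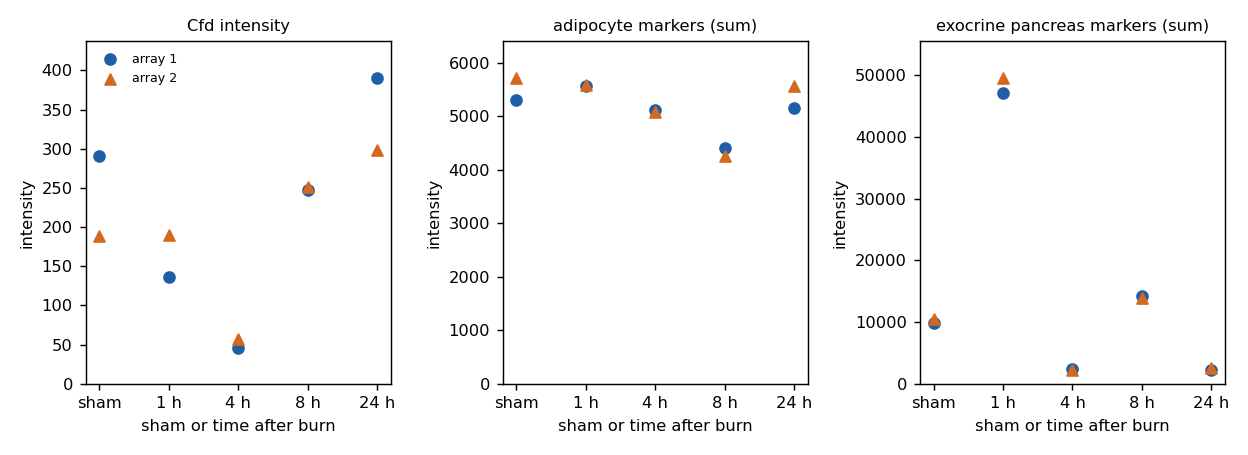
Intensity of Cfd (left), summed intensity of the adipocyte markers (middle) and of the exocrine pancreas markers (right) for sham and the burn times 1, 4, 8 and 24 h, with circles and triangles for the 2 arrays of a group. Cfd reads 46.0 and 56.8 at 4 h, where the adipocyte sum is 5117 and 5083 and the pancreatic sum 2373 and 2294. Most of the adipocyte sum comes from Lep D49653_s_at and Car3.

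The calls among the members were counted at each time beside those over all probe sets. At 1 h 0 of 9 was called, beside 1.44% of all tested probe sets called in either direction. An unadjusted p under 0.05 by limma was also reached by 0 of 9, beside 636 of the 5285 tested probe sets. At 4 h 1 of 9 was called lower, beside 1.99%. At 8 h 2 of 9 were called higher, beside 1.55%, and 6 of 9 had an unadjusted p under 0.05, beside 985 of 5285. At 24 h 2 of 9, both of Mbl2, were called lower, beside 6.34%. Unadjusted p under 0.05 was found for 2 of 9 at 4 h and 4 of 9 at 24 h, beside 918 and 1352 of 5285. In the order of the times, the median log2 change of the 9 was 0.09, -0.11, 0.57 and -0.26, and over all tested probe sets it was 0.01, -0.04, -0.10 and -0.04.

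Overlap between the arrays was counted in the same way. Both burn arrays lay on 1 side of both sham arrays for 3 of 9 probe sets at 1 h, beside 42.8% of all tested, and for 3 of 9 at 4 h, beside 46.1%. Those shares are near or under the background. At 8 h it was 8 of 9, with 6 above and 2 below, beside 48.3%, and at 24 h 7 of 9, with 2 above and 5 below, beside 54%. Of the 9, the probe set that overlapped with sham at 8 h was that of Cfd, and those at 24 h were both of C3.

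**Figure D3:**
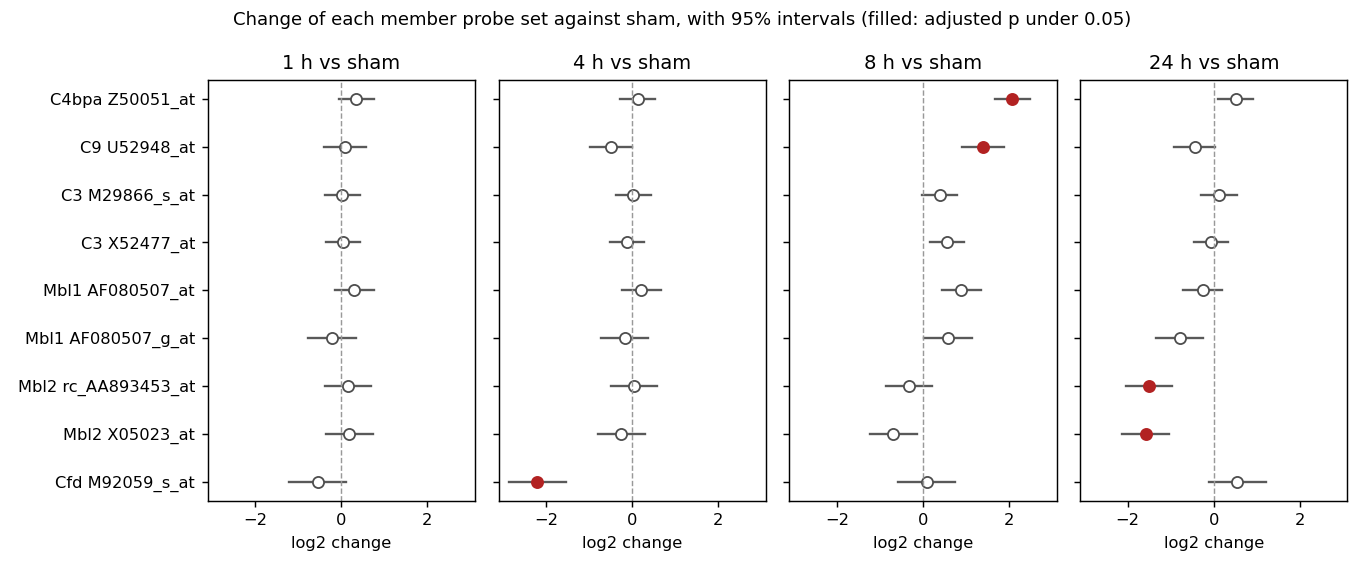
Log2 change of each of the 9 member probe sets against sham at 1, 4, 8 and 24 h, with bars for the 95% interval of limma and filled circles for an adjusted p under 0.05. Calls are Cfd at 4 h, C4bpa and C9 at 8 h and both Mbl2 probe sets at 24 h.

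More member probe sets were called in the steps around 8 h than against sham at any time. From 1 to 4 h 1 of 9 was called lower, that of Cfd, beside 2.54% of all tested probe sets. From 4 to 8 h 3 of 9, those of C4bpa, C9 and Cfd, were called higher, beside 3.48%. From 8 to 24 h 5 of 9, those of C4bpa, C9, both of Mbl1 and 1 of Mbl2, were called lower, beside 5.94%. The median log2 change of the 9 was 0.68 from 4 to 8 h and -1.15 from 8 to 24 h, and over all tested probe sets it was -0.07 and 0.07. The steps into and out of 8 h share the 8 h arrays and are not independent of each other.

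The rest of the complement system was read from a list of 51 genes, of which 25 were on the array and 21 were tested, the 6 members among them. Of the 15 tested genes that are not members, 1 was called higher at 8 h against sham, beside 1.55% of all tested probe sets. At 24 h 1 was called lower, beside 6.34%, and none was called at 1 or 4 h. An unadjusted p under 0.05 by limma was reached by 1, 2, 7 and 4 of the 15 at 1, 4, 8 and 24 h. Over all 5285 tested probe sets it was reached by 636, 918, 985 and 1352. Serping1, the C1 inhibitor, rose at 8 h to a mean of 5847, against 3423 in sham rats, a log2 change of 0.77 (SE 0.16, adjusted p = 0.0465), a call that held under 4 of 18 alternatives. C1r, a protease of the first component, fell at 24 h to a mean of 3303, against 6336 in sham rats, a log2 change of -0.94 (SE 0.16, adjusted p = 0.0136), which held under 13 of 18.

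Of the 8 tested recognition genes, 5 fell from 8 to 24 h, beside 5.94% of all tested probe sets called lower: Mbl1, Mbl2, C1qb, C1r and C1s. Over the same step the summed hepatocyte markers were 429082 and 466963 at 24 h, against 558640 and 584206 at 8 h, and their part in these falls was not tested. C1s, the protease that C1r activates, had the largest step of these, with a mean of 1315 at 24 h, against 4849 at 8 h, a log2 change of -1.89 (SE 0.24, adjusted p = 0.00424) that passed under all 18 alternatives. Its mean at 4 h was 1605, and the rise from 4 to 8 h was 1.61 (adjusted p = 0.0097), while at 8 h against sham it did not pass (log2 change 1.16, adjusted p = 0.0513). At 1 h its mean was 3321, against 2169 in sham rats, a log2 change of 0.61 that did not pass (adjusted p = 0.382). C1r rose from 4 to 8 h by 0.69 (adjusted p = 0.0436), fell from 8 to 24 h by 1.02 (adjusted p = 0.00897) and had fallen from 1 to 4 h by 0.78 (adjusted p = 0.0388). The first and last of these C1r calls held under 4 of 18 and 5 of 17 alternatives. In the order sham, 1, 4, 8 and 24 h the means of C1s were 2169, 3321, 1605, 4849 and 1315, and those of C1r were 6336, 7187, 4183, 6722 and 3303. The summed exocrine pancreas markers, whose values stand beside Cfd, went up and down in the same direction as both genes at each of these steps. So did the summed hepatocyte markers, which were 445853 and 499559 at 1 h, and the summed macrophage markers. In the same order the macrophage sums were 1634 and 1810, 2013 and 2188, 1110 and 1209, 1712.5 and 1726, and 1023 and 1237. The part of any of these cells in C1s and C1r was not tested.

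C1qb, a chain of the recognition molecule of the classical pathway, had a mean of 894 at 24 h, against 1627 at 8 h, a log2 change of -0.87 on its brighter probe set X71127_at (adjusted p = 0.0272), which held under 10 of 18. On X71127_g_at the change was -0.74 and did not pass (adjusted p = 0.104). C1q is made largely by macrophages, and the 3 macrophage markers on the array summed to 1023 and 1237 at 24 h, against 1712.5 and 1726 at 8 h. At 4 h these markers summed to 1110 and 1209, against 1634 and 1810 in sham rats, where X71127_at had means of 1359 and 1202. C1qc, another chain, changed by -0.34 from 8 to 24 h on its tested probe set and did not pass (limma, adjusted p = 0.357). The part of macrophages in the fall of C1qb was not tested.

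Crp, C-reactive protein, was the symbol that the probe table gave to 3 tested probe sets. Whether M13101cds_f_at and U83119_f_at, whose suffix differs from that of the brightest, read Crp itself was not tested. On the brightest, rc_AA818144_at, the log2 change was -0.06 at 8 h (adjusted p = 0.867) and -0.25 at 24 h (adjusted p = 0.339). On M13101cds_f_at the mean was 536.6 at 8 h, against 1343 in sham rats, a log2 change of -1.36 (adjusted p = 0.0282), and at 24 h the change was -0.96 (adjusted p = 0.0416). These calls held under 7 and 6 of 18 alternatives. On U83119_f_at the change was -0.49 at 8 h (adjusted p = 0.243) and -0.27 at 24 h (adjusted p = 0.46), and neither passed. M13101cds_f_at is 1 of 3 probe sets and was singled out after its values were seen.

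Of the 5 tested soluble inhibitors, C4bpa, C4bpb, Serping1 and Vtn rose from 4 to 8 h, beside 3.48% of all tested probe sets called higher. Over the same step the summed hepatocyte markers were 558640 and 584206 at 8 h, against 360565 and 435336 at 4 h, and the exocrine pancreas markers 14215 and 13855 at 8 h, against 2373 and 2294 at 4 h. The part of either in these rises was not tested.

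C4bpb, the beta chain of C4b-binding protein, had a mean of 4224 at 8 h, against 2287 at 4 h, a log2 change of 0.88 (SE 0.17, adjusted p = 0.0222), which held under 13 of 18 alternatives. At 8 h against sham it missed the threshold, with a log2 change of 0.76 (adjusted p = 0.0573), where the alpha chain C4bpa had 2.07. The difference between both chains was not tested. Vtn, vitronectin, an inhibitor of pore assembly, had a mean of 23620 at 8 h, against 14684 at 4 h, a log2 change of 0.69 (adjusted p = 0.0297), which held under 7 of 18. Serping1 rose from 4 to 8 h by 0.96 (adjusted p = 0.0122) and fell from 8 to 24 h by 1.01 (adjusted p = 0.00823). Clu, clusterin, also an inhibitor of pore assembly, fell from 8 to 24 h by 0.65 (adjusted p = 0.0489), a call kept under 7 of 18.

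**Figure D4:**
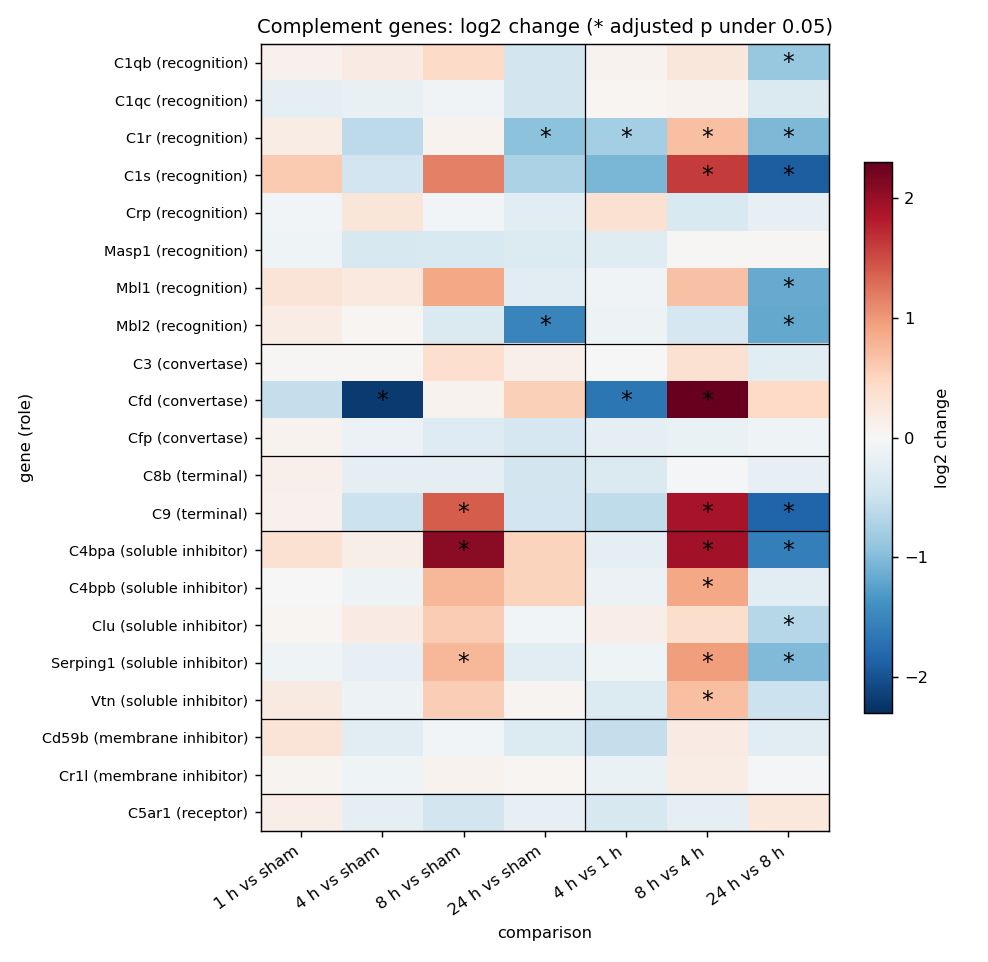
Log2 change of the 21 tested complement genes, by role, for each burn time against sham and for each step between successive burn times. Colour gives the change and an asterisk an adjusted p under 0.05 by limma, with a gene of several probe sets shown by its brightest. Most asterisks stand in the steps from 4 to 8 h, 8 genes higher, and from 8 to 24 h, 9 genes lower.

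Over the 10 arrays, which share their 5 groups and nearly the same trimmed mean, the members' log2 values varied together to different degrees. C9 correlated with C3 X52477_at at 0.95 and with C4bpa at 0.88 (Pearson's r), and Mbl1 AF080507_at with C9 at 0.84. The paired probe sets correlated at 0.87 for C3, 0.87 for Mbl1 and 0.92 for Mbl2. The 4 pairs of a Mbl1 and a Mbl2 probe set correlated at 0.28 to 0.58. The probe sets rc_AA893453_at and X05023_at of Mbl2 correlated at -0.17 and -0.32 with C4bpa and at -0.57 and -0.46 with Cfd. These are descriptions over 10 arrays in 5 groups and carry no test.

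The genes whose log2 values were most like each member's over the 10 arrays were then listed, 3 for each, from all tested genes with a single symbol. For C4bpa they were Ssr4 (r = 0.97), Hp, which encodes haptoglobin (0.97), and Lcn2, which encodes lipocalin 2 (0.95). For C9 they were Uqcc2 (0.96), F2, which encodes prothrombin (0.95), and Dbi (0.95). For C3 M29866_s_at they were Hpx, which encodes hemopexin (0.94), Elob (0.92) and Atp5f1e (0.92). For Mbl1 AF080507_at they were Slco2a1 (0.93), Ebp (0.93) and Acacb (0.90). For Mbl2 rc_AA893453_at they were Cdo1, which encodes cysteine dioxygenase (0.96), Dmgdh (0.96) and Gjb1 (0.96). For Cfd they were G0s2 (0.92), Dnaja1 (0.90) and P4ha1 (0.89).

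Across the series, the median intensity of an array ran from 100.1 to 131.1 and 70.3% to 76.8% of its probe sets lay above the floor. The arrays of a group correlated at 0.948 to 0.955, no array correlated with one of another group above 0.941, and at most 24 probe sets had the same value on both arrays of a group, so no array repeated another. Hepatocyte markers were very bright, with 6 of 7 on the array and Alb at a mean of 91172 at 8 h and 71733 in sham rats on its brightest probe set. Of 7 macrophage markers 3 were on the array and 1 was called lower at 24 h. Of 5 neutrophil markers 2 were on the array and none was tested, with a sum of 140.4 and 174.3 at 8 h, against 53.6 and 56.0 in sham rats. Lymphocyte, endothelial and stellate, and muscle markers had no call at any time.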

How the data were processed

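The deposited table holds intensity values of 8799 probe sets on 10 arrays. Its unit was inferred from the deposited values, which run from 0.1 to 97822.9. The scaling is not stated, but the arrays had nearly the same trimmed mean, 500.907 to 501.044 without the lowest and highest 2%. How the scanner images were turned into values is not stated. The values were used without further scaling. A floor of 36.4, the 25th percentile taken as a median over arrays, was set before log2. Probe sets above their array's median on at least 2 arrays, 5285, were tested. The probe table gives 1 symbol to 7018 probe sets, several to 308, and does not list 1473, which stayed unnamed.

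The 5 groups were fitted together with limma 3.58.1 in R 4.3.3, without covariates, at 5 residual degrees of freedom, and the script was tested on simulated data. Tests were two-sided, with Benjamini-Hochberg adjustment over the 5285 probe sets, and a call means an adjusted p under 0.05. Intervals are limma's 95% intervals. Every member probe set is described, with each called gene of a wider complement list and the 3 genes most correlated with each member's brightest probe set. A listed gene with several probe sets is counted by its brightest, and the second Crp probe set named was chosen after its values were seen. Members and lists were chosen with earlier results of these data known. Settings varied were the normalization (quantile), the floor (10th or 50th percentile), the filter (none), the variance model (robust, with an intensity trend), a block for the replicate number, the arrays fitted (only the groups compared), and the omission of each array. An alternative without the 1 h arrays was added after seeing the data. The number of arrays limits the precision.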

Additional observations from a re-analysis of the deposited data

How the results depend on the processing

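All 14 calls for member probe sets kept their direction under every alternative tried, and 4 of them also stayed past the threshold under each, those of C4bpa, C9 and Cfd from 4 to 8 h and of C4bpa from 8 to 24 h. Of 31 member comparisons with sham that were not called, 27 stayed so throughout. Same-numbered arrays deviated together at r of 0.011 to 0.17, positive in all 10 pairs of groups but over 0.1 in only 5, so a pairing by number was not assumed and cannot be settled from the labels. With the replicate block 5 member probe sets were called from 4 to 8 h, against 3 without it, no member call was lost, and Mbl1 AF080507_g_at passed at 24 h (adjusted p = 0.0282). The block ended the calls of Serping1 at 8 h (0.0571), C1r from 1 to 4 h (0.0509) and from 4 to 8 h (0.0573), and Clu from 8 to 24 h (adjusted p = 0.0567). Quantile normalization ended those of Serping1 at 8 h (0.0613), C1r from 4 to 8 h (0.0613) and Crp M13101cds_f_at at 24 h (adjusted p = 0.057). It also ended that of Vtn from 4 to 8 h, where the log2 change became 0.495 (adjusted p = 0.0783). Counts over all probe sets moved most. In the order 1, 4, 8 and 24 h against sham, then 1 to 4, 4 to 8 and 8 to 24 h, limma called 76, 230, 185, 543, 264, 438 and 621. An intensity trend gave 140, 380, 377, 830, 428 and 683 for the first 6. The higher floor gave 133 at 1 h, 374 at 4 h, 312 at 8 h and 401 from 1 to 4 h. No filter gave 280 at 8 h, and leaving out the 1 h arrays, chosen after seeing the data, gave 91. Only the groups compared, which leaves 2 residual degrees of freedom, gave 0, 69, 0, 104, 89, 70 and 167. For member probe sets (0, 1, 2, 2, 1, 3 and 5 calls) only the groups compared gave 0 at 4, 8 and 24 h and from 1 to 4 h, and 1 from 8 to 24 h. The higher floor gave 0 at 4 h, 0 from 1 to 4 h and 5 from 4 to 8 h. An intensity trend gave 4 at 8 h, 4 at 24 h, 2 from 1 to 4 h and 6 from 4 to 8 h. For the 21 complement genes (1, 3 and 2 calls at 4, 8 and 24 h) no filter gave 2 and 5 at 4 and 8 h, the higher floor 7 at 8 h, an intensity trend 2, 8 and 6, and only the groups compared 0 at each. Leaving out each array in turn gave 29 to 75, 125 to 222, 43 to 107, 216 to 482, 113 to 236, 182 to 383 and 254 to 572 calls over all probe sets. It gave 1 to 2 member calls at 8 h, 1 to 2 at 24 h, 0 to 1 from 1 to 4 h and 2 to 5 from 8 to 24 h, and 1 to 2 complement genes at 8 h and 0 to 2 at 24 h. Changes near 0 that were never called turned sign. Under quantile normalization C3 M29866_s_at was at -0.019 at 1 h, and C3 X52477_at at -0.061 at 1 h and 0.032 at 4 h. With an array left out, C3 M29866_s_at ranged from -0.115 to 0.167 at 1 h, -0.11 to 0.172 at 4 h and -0.022 to 0.26 at 24 h. C3 X52477_at ranged from -0.092 to 0.187, -0.254 to 0.025 and -0.219 to 0.061 at those times. Mbl2 rc_AA893453_at ranged from -0.054 to 0.38 at 1 h and -0.008 to 0.107 at 4 h, C9 from -0.032 to 0.22 at 1 h and Cfd from -0.223 to 0.4 at 8 h. Apart from those that test fewer samples or genes, the cause was not tested. The member limited by signal was Cfd, at 4 h.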
